A study of Mus musculus with 12 samples.

Results

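The genes described here encode 36 aminoacyl-tRNA synthetases of the mouse, taken by symbol from the 24421 genes counted in each library. They comprise 20 cytosolic enzymes or enzyme subunits and 16 mitochondrial ones, whose symbols end in 2. All 36 were found in the count files and all passed the filter on low counts. The symbols Gars and Kars stand for genes that supply both compartments, and they are counted here with the cytosolic enzymes. The libraries hold hippocampal RNA that sedimented with ribosomes, from 6-week-old C57/Bl6 mice housed alone, in 6 control and 6 fear case libraries. The protocol given for every library, control libraries included, describes 8 min in a new context and 7 min back in the home cage before the tissue was taken at 15 min. How the control mice were handled is not described separately in the labels. Separate mice are not stated for the libraries of a group, so p-values measure the spread between these libraries.

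Aminoacyl-tRNA synthetases join each amino acid to its matching tRNA, and the charged tRNA is then handed to the ribosome by an elongation factor. The cytosolic and mitochondrial protein synthesis systems use mostly separate enzymes, all encoded in the nucleus. Several cytosolic synthetases sit in the multisynthetase complex, a large assembly held by scaffold proteins, and the others work outside it. Neurons depend on this machinery for protein synthesis near synapses, and inherited changes in several synthetase genes cause peripheral neuropathy or disease of the brain. Many cytosolic synthetase genes are also known targets of ATF4, the transcription factor of the amino acid and integrated stress response.

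ATF4 is known to act through a composite DNA element that it binds with a C/EBP partner. The core of that element was searched as TGATGNAA on both strands, read as TTNCATCA on the reverse strand, in RefSeq promoters (GRCm38.p6) that run from 250 bases before to 50 bases after the start of transcription. Of the 27 synthetases matched in that table, 5 had the core, all of them among the 8 matched members of the ATF4 target list, against 0 of the other 19. Over all 27025 genes in the table, 4.51% had it. The 8 are all cytosolic, while the other 19 are mitochondrial except Dars, Kars, Qars, Farsa and Farsb. The contrast is therefore largely one of compartment as well. Lars, Cars, Nars and Wars of the target list had no matched promoter. A match is a description of the letters and does not show binding. The windows below show 4 of these genes, 30 bases each, 5′ to 3′ on the strand of the gene, with the core in capitals.
Gars: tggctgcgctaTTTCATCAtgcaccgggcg
Iars: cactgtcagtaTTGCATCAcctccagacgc
Tars: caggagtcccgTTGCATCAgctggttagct
Yars: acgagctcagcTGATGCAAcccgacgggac

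The Gars window is chr6:55037960-55037989 on the plus strand, with its core 30 bases before the start of transcription. The Tars window is chr15:11399655-11399684 on the minus strand, with its core 15 bases before the start. The cores in Iars (chr13:49682126-49682155, plus strand) and Yars (chr4:129189895-129189924, plus strand) begin 8 and 4 bases after the start. Among these 4 genes, the core reads on the reverse strand in Gars, Iars and Tars and on the strand of the gene in Yars.

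Gene counts ranged from 18.6 M to 44.2 M per library, and fear case 6 was the deepest. The ribosomal RNA precursor Rn45s took 12.5% of its counts against 4.55% to 7.98% in the other libraries. Hippocampal neuron markers summed to 3689 to 4195 CPM (counts scaled to the library size, per 1e+06) in controls and 3778 to 4003 CPM in fear case, and all 10 markers of that list were detected in both groups. Markers of the choroid plexus, the epithelium of the brain ventricles, summed to 1090 to 2966 CPM in controls and 108 to 2245 CPM in fear case, and fear case 6 held the value at the top of that range. Fear case 1 to 5 held at most 590 CPM, below every control. All 19 of those markers had a negative log2 fold change, and 17 had an unadjusted p under 0.05 with edgeR, against 7.14% of all genes tested. Median log2 fold changes were -0.05 for astrocyte, -0.03 for microglia, -0.13 for oligodendrocyte and -0.10 for endothelial and mural markers, with 0 called in each list, choroid plexus included. Over all genes tested 0.103% were called. In RNA that sedimented with ribosomes, a lower level can come from fewer cells of a type, less RNA per cell or less of it on ribosomes. These cannot be told apart here.

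Within the cytosolic set the abundance order ran from Hars, the histidyl enzyme, down to Farsa, the catalytic subunit of the phenylalanyl enzyme. Levels between genes are given as CPM per kb of exon, and the exon length joins all annotated exons of the gene, retained introns included. By the longest transcript instead, Nars and Hars led with nearly equal levels (61.0 and 60.7 CPM per kb), and Eprs moved most, from rank 16 to rank 11. Hars stood at 49.3 ± 4.53 CPM per kb in controls (mean ± SD, n = 6), Gars (glycyl) at 42.7 ± 4.12 and Nars (asparaginyl) at 38.4 ± 2.11. At the low end were Vars (valyl) at 4.25 ± 0.521, Cars (cysteinyl) at 3.93 ± 0.393 and Farsa at 3.73 ± 0.702 CPM per kb. The median over the 20 genes was 10.7 CPM per kb. Farsb, the other subunit of the phenylalanyl enzyme, which pairs with Farsa in equal number in the protein, stood at 18.5 ± 2.13 CPM per kb. Of the 19 pairs of neighbours in the order, 16 had control ranges that overlapped, and the steps without overlap were Nars to Sars, Dars to Rars and Qars to Vars.

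Mitochondrial synthetases were lower at the median, and Lars2, far above the rest, is described below. Rars2 (arginyl) led the other 15 at 6.09 ± 0.705 CPM per kb in controls, followed by Iars2 (isoleucyl) at 4.82 ± 0.632. The lowest were Cars2 (cysteinyl) at 1.07 ± 0.162, Nars2 (asparaginyl) at 0.983 ± 0.133 and Mars2 (methionyl) at 0.877 ± 0.0982 CPM per kb. The median over these 15 genes was 2.71 CPM per kb, against 10.7 for the cytosolic genes. The sets overlapped in level. Rars2 lay above Qars (5.60 CPM per kb), Vars, Cars and Farsa, and Iars2 above Vars, Cars and Farsa. Aars2 (4.19) and Fars2 (4.12) lay above Cars and Farsa. For 12 amino acids outside leucine, a cytosolic gene was paired with the mitochondrial gene of the same symbol followed by 2. The cytosolic gene was higher for all 12, by 1.86-fold for isoleucine to 39.1-fold for asparagine, with a median ratio of 3.43. With the longest transcript as the length, the cytosolic gene was again higher for 12 of 12. Pairing by symbol leaves out Fars2, which at 4.12 CPM per kb lay above Farsa (3.73) and below Farsb (18.5). By the longest transcript Fars2 was again above Farsa (7.04 against 5.07). It also leaves out Eprs (6.50), which was above Ears2 (1.64) and Pars2 (2.71).

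**Figure D1:**
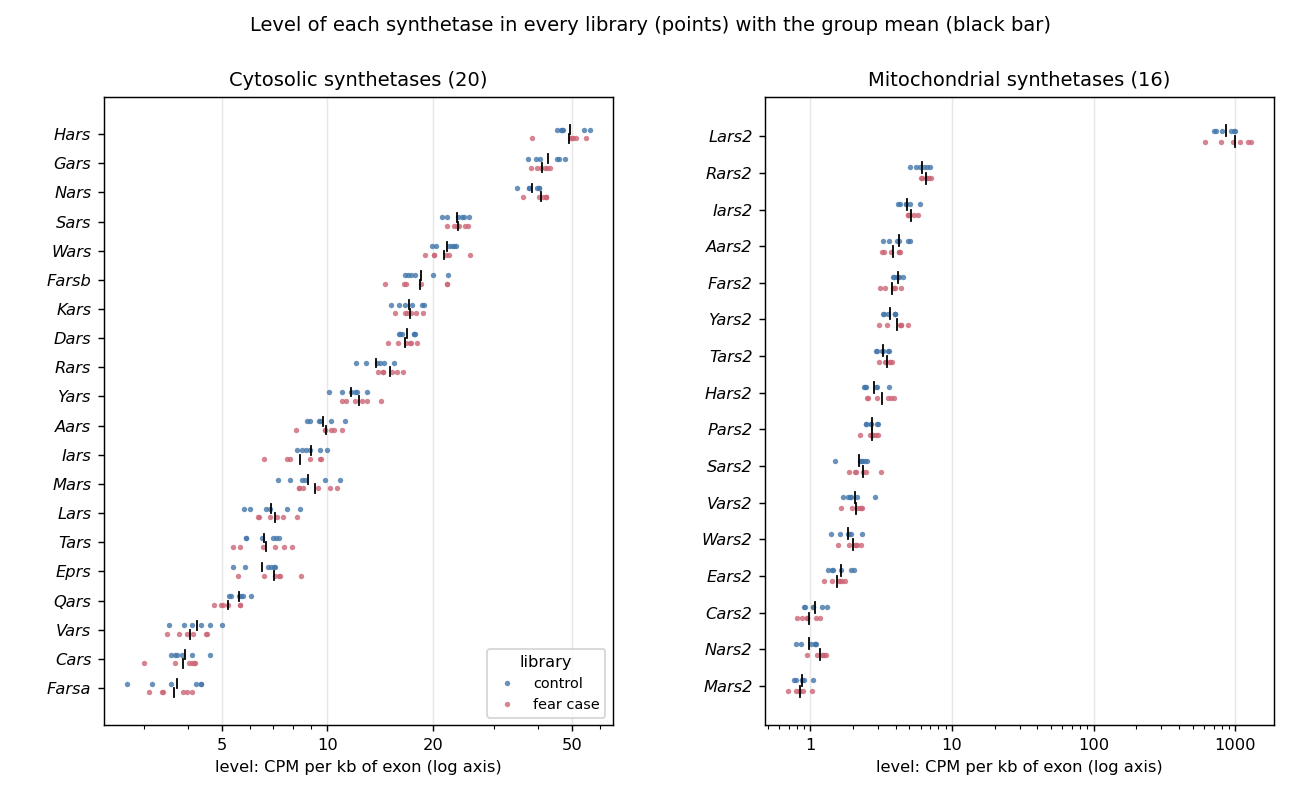
Level of each synthetase in CPM per kb of exon (log axis), with a point for each control (blue) and fear case (red) library and a black bar for the group mean. Cytosolic genes run from Farsa at 3.73 to Hars at 49.3 in controls, the mitochondrial genes other than Lars2 from Mars2 at 0.877 to Rars2 at 6.09, and the points of the groups overlap for every gene.

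Fear case and control libraries were then compared gene by gene for ribosome-associated RNA. No cytosolic synthetase was called: of 20 tested, 0 rose, 0 fell and 20 did not pass at an adjusted p under 0.05 (edgeR's quasi-likelihood test, Benjamini-Hochberg adjustment over 14564 genes). Of all genes tested, 0.103% were called, 0.0481% as higher and 0.0549% as lower, and 0 of 20 is near that share. None of the 20 reached an unadjusted p below 0.05, which 7.14% of all genes did. Over all 36 synthetases that count was 1 in place of 0 when the mean log2 CPM of the choroid plexus markers entered the model as a score. It was also 1 when control 3 or any of the fear case libraries 1, 2 and 3 was left out. The alternative tools, limma-voom and DESeq2, called 0 of them. In no member did the 6 fear case libraries lie wholly above or below the 6 controls, a separation seen in 0.590% of all genes tested (0.268% above and 0.323% below). The log2 fold changes ran from -0.11 to 0.12, with 10 positive and 10 negative and a median of -0.0031, beside a median of -0.0046 over all genes.

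The intervals were narrow. Every cytosolic 95% interval lay between 0.818-fold (Farsa) and 1.23-fold (Eprs), taken gene by gene without adjustment for their number. For all 36 synthetases the interval lay inside 1.5-fold in either direction, which held for 74.8% of all genes tested. The SE had a median of 0.097 for the synthetases and 0.112 over all genes, with a highest value of 0.155 against 2.13. Genes of like abundance were not compared.

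**Figure D2:**
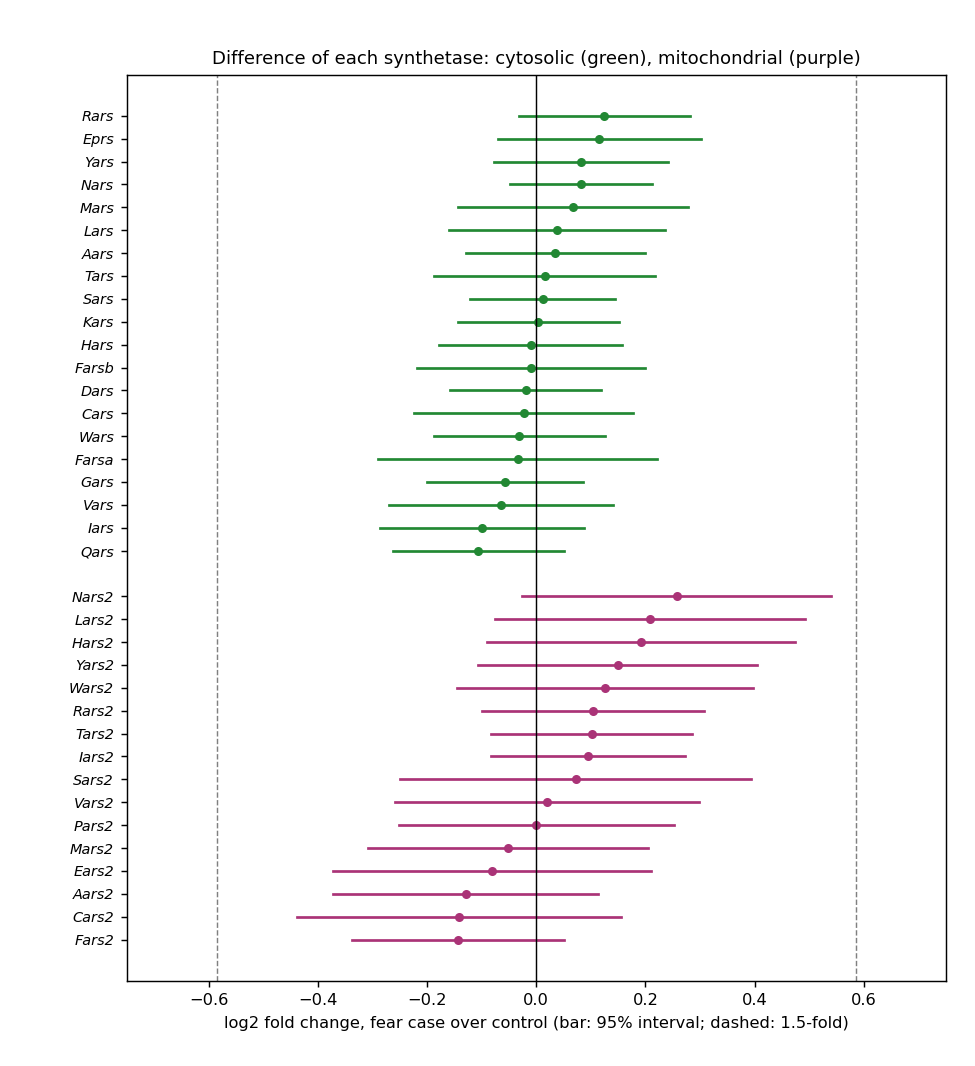
Log2 fold change of fear case over control for each synthetase, with bars for the 95% interval, cytosolic genes in green and mitochondrial genes in purple, sorted by value. Every bar crosses 0 and ends inside the dashed lines at 1.5-fold, and the estimates run from -0.14 (Fars2) to 0.26 (Nars2).

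Among members of the multisynthetase complex, Rars, the arginyl enzyme, had the lowest p of the cytosolic set. Its level was 38.9, 45.2 and 49.9 CPM in controls (lowest, median and highest) and 45.2, 48.0 and 53.0 CPM in fear case. The lowest fear case library lay at about the control median, and the ranges overlapped. The log2 fold change of Rars was 0.12 (SE 0.08, adjusted p = 0.763 with edgeR). Eprs, the fused glutamyl and prolyl enzyme, ranged over 97.2, 124 and 129 CPM in controls and 101, 130 and 152 CPM in fear case. Its highest value was in fear case 6, and its log2 fold change was 0.12 (SE 0.09, edgeR adjusted p = 0.819). That estimate was 0.06 without fear case 6, 0.07 without control 1, 0.18 without fear case 2 and 0.27 with the choroid plexus score in the model (edgeR adjusted p = 0.627, and 0.618 to 0.916 over all alternatives). Qars, the glutaminyl enzyme, ranged over 34.5, 37.0 and 39.8 CPM in controls and 31.3, 33.6 and 37.1 CPM in fear case. Its libraries overlapped across the groups, with a log2 fold change of -0.11 (SE 0.08, edgeR adjusted p = 0.797). The complex members Dars (aspartyl), Lars and Mars (methionyl) stood at -0.02, 0.04 and 0.07 on the log2 scale. Over the 8 enzymes of the complex, 5 log2 fold changes were positive and 3 negative, with a median of 0.02.

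Kars, the lysyl enzyme of the complex and of mitochondria, stood at 76.6 ± 6.60 CPM in controls, and in fear case at 76.8 ± 4.85 CPM (SD, n = 6 each). Its 95% interval ran from 0.905-fold to 1.11-fold. Gars, the other enzyme shared between compartments, ranged over 117, 134 and 149 CPM in controls and 119, 129 and 135 CPM in fear case. The fear case values of Gars all fell within the control range, and its log2 fold change was -0.06 (SE 0.07, edgeR adjusted p = 0.895).

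Among cytosolic enzymes outside the complex, Nars had the lowest p. It ranged over 152, 169 and 176 CPM in controls and 157, 182 and 183 CPM in fear case. Fear case 1, 4, 5 and 6 lay above all controls, while fear case 2 and 3 lay inside the control range. The log2 fold change of Nars was 0.08 (SE 0.06, edgeR adjusted p = 0.817), with an interval from 0.967-fold to 1.16-fold. It was 0.14 with the choroid plexus score in the model. Hars ranged over 111, 115 and 137 CPM in controls and 94.0, 123 and 135 CPM in fear case, and its only value below the controls was that of fear case 6. Vars ran from 19.8 to 28.0 CPM in controls and from 19.5 to 25.5 CPM in fear case, and its log2 fold change was -0.06 (SE 0.10). Cars ran from 23.6 to 30.5 CPM against 19.7 to 27.6 CPM (log2 fold change -0.02, SE 0.10), and Farsa from 12.2 to 19.8 CPM against 14.1 to 18.7 CPM (-0.03, SE 0.12). The ranges of these low-abundance enzymes overlapped between the groups. Aars (alanyl), Sars (seryl), Wars (tryptophanyl) and Farsb stood at 0.03, 0.01, -0.03 and -0.01. Over the 12 genes outside the complex, 5 log2 fold changes were positive and 7 negative, with a median of -0.01.

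By structural class the picture was alike. The catalytic domains of synthetases fall into unrelated folds, class I and class II, and the fused enzyme Eprs carries both. The 18 class I genes had log2 fold changes from -0.14 to 0.21 with a median of 0.03, and the 17 class II genes from -0.14 to 0.26 with a median of 0.0037. In both classes 0 genes passed.

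Mitochondrial synthetases likewise gave 0 that rose, 0 that fell and 16 that did not pass, and 0 had an unadjusted p below 0.05. The count of calls was 0 with limma-voom and with DESeq2 as well. Their log2 fold changes ran from -0.14 to 0.26, with 10 positive and 6 negative. The median was 0.08, beside -0.0046 over all genes tested, and 0.07 without Lars2. It was 0.03 without control 1, 0.04 without fear case 3 and 0.06 without control 5, and 0.07 to 0.10 when any other single library was left out. When a score of the choroid plexus markers entered the model, the median of the 16 genes was -0.03, and all 16 again missed the threshold. As given above, only fear case 6 had a score within the control range, so score and group can hardly be told apart.

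Nars2, which charges the mitochondrial asparagine tRNA, had the lowest p of all 36. Its level was 5.48, 7.25 and 7.64 CPM in controls and 6.59, 8.52 and 8.92 CPM in fear case. All fear case libraries but fear case 3 lay above every control. The log2 fold change was 0.26 (SE 0.14, unadjusted p = 0.0726, edgeR adjusted p = 0.733), and its interval ran from 0.982-fold to 1.45-fold. Nars2 was counted from 113 to 313 reads per library. The estimate stayed between 0.20 and 0.31 when each library was left out in turn.

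Hars2, the mitochondrial histidyl enzyme, ranged over 10.1, 11.6 and 15.4 CPM in controls and 10.8, 13.9 and 16.7 CPM in fear case, so that the groups shared most of their range. Its log2 fold change was 0.19 (SE 0.14, edgeR adjusted p = 0.795), and 0.12 without fear case 1. Hars and Hars2 lie head to head and share 195 bases of exon on opposite strands, 7.97% of the Hars exon length and 4.56% of that of Hars2, and the sources used here do not say if reads were counted by strand. Fars2, the mitochondrial phenylalanyl enzyme, ranged over 22.0, 23.8 and 26.0 CPM in controls and 17.7, 22.1 and 25.0 CPM in fear case. Its values overlapped between groups, with a log2 fold change of -0.14 (SE 0.09, edgeR adjusted p = 0.784), and -0.09 without fear case 6. Exons of Fars2 overlap those of Nrn1, an activity-regulated gene, on the opposite strand over 8.72% of its length. Other members whose exons overlap another counted gene over more than 5% of their length were Iars2 with Rab3gap2 (22.9%, opposite strand), Aars with Exosc6 (14.3%, same strand) and Farsb with Sgpp2 (9.47%, opposite strand). Reads in such stretches may have been set aside as ambiguous.

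Of the other mitochondrial members, Rars2 and Iars2 at the upper end of the abundance order had log2 fold changes of 0.10 each. Rars2 ran from 14.0 to 19.3 CPM in controls and from 16.7 to 19.7 CPM in fear case, and Iars2 from 37.0 to 52.6 CPM against 43.0 to 51.2 CPM. At the lower end Cars2 ran from 6.57 to 9.50 CPM against 5.81 to 8.47 CPM (log2 fold change -0.14, SE 0.14). Mars2 ran from 8.71 to 11.8 CPM against 7.90 to 11.6 CPM (-0.05, SE 0.12). All of these ranges overlapped. Positive values were also estimated for Yars2 (tyrosyl) at 0.15, Wars2 (tryptophanyl) at 0.13, Tars2 (threonyl) at 0.10, Sars2 (seryl) at 0.07 and Vars2 (valyl) at 0.02, and negative ones for Aars2 (alanyl) at -0.13 and Ears2 (glutamyl) at -0.08. Pars2, the prolyl enzyme, was at -9.4e-05, with 8.37 ± 0.714 CPM in controls, and 8.39 ± 0.829 CPM in the fear case libraries.

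Lars2, the mitochondrial leucyl enzyme, stood apart in abundance. It was counted from 148524 to 482691 times per library, 0.678% to 1.41% of all gene counts, whereas the other 35 synthetases ranged from 97 to 7361 counts. Its level of 859 ± 129 CPM per kb in controls compares with 6.09 CPM per kb for the next mitochondrial gene and 6.90 ± 0.982 for Lars, the cytosolic leucyl enzyme. The control libraries held 8840, 7884, 11086, 10880, 8064 and 10371 CPM of Lars2, in order of their number. The fear case libraries held 6717, 13556, 14249, 8751, 10681 and 12025 CPM. Fear case 2, 3 and 6 lay above every control and fear case 1 below every control, so the fear case group spanned a wider range on both sides. The log2 fold change of Lars2 was 0.21 (SE 0.14, edgeR adjusted p = 0.784), with an interval from 0.949-fold to 1.41-fold. It ran from 0.12 without fear case 3 to 0.31 without fear case 1 when each library was left out in turn, was 0.14 without fear case 2, and was 0.09 with the choroid plexus score in the model.

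The spread of Lars2 between libraries was far above its counting error. Its coefficient of variation was 15.1% in controls and 26.2% in fear case, where counting alone gives 0.226%. The cytosolic genes had a median coefficient of variation of 9.37% in controls against 2.91% from counting. The other 15 mitochondrial genes had 13.5% against 6.62%, so that counting error took a larger part of their spread than in the cytosolic set.

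The Lars2 gene covers 123366927 to 123462666 on chromosome 9, plus strand, in GENCODE vM21 (GRCm38). Its main coding transcript of 3894 bases was compared with all GENCODE transcripts by blastn. A stretch of 72 bases matched the noncoding transcript Gm15564 at 98.6% identity, with 1 mismatch and 0 gaps. Among these transcripts it was the only match of at least 90% identity to another gene, with gaps counted against identity. A longer alignment of 196 positions to AA474408 contained the same stretch. Its identity was 80.1%, with 5 mismatches and 34 gap positions. The 72-base stretch lies at chromosome 9, 123462048 to 123462119, in exon 21, beyond the end of the coding sequence at 123461675. It is longer than the 40-base reads of the study. The files give no position within a gene, so how many of the Lars2 counts came from there was not tested. Neither Gm15564 nor AA474408 is among the counted genes. The sequence of the ribosomal RNA precursor and the genome outside these transcripts were not searched. Matches of Lars2 there were not tested.

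Levels of Rn45s were set beside those of Lars2, since both are very abundant. Across the 12 libraries the log2 CPM of these genes had a Pearson r of 0.39 (permutation p = 0.218, adjusted p = 0.504 over 5 relations) and a Spearman rho of 0.44 (permutation p = 0.153, adjusted p = 0.381). Without fear case 6 and control 6, the libraries farthest from the median of Rn45s, r was 0.38 (permutation p = 0.279). It was 0.28 within controls (permutation p = 0.582) and 0.44 within fear case (permutation p = 0.398), with 6 libraries each. None of these passed. Fear case 6, with the highest Rn45s level at 137752 CPM, had 87.3 Lars2 counts per 1000 of Rn45s, the lowest of the 12, and the others had 126 to 252.

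**Figure D3:**
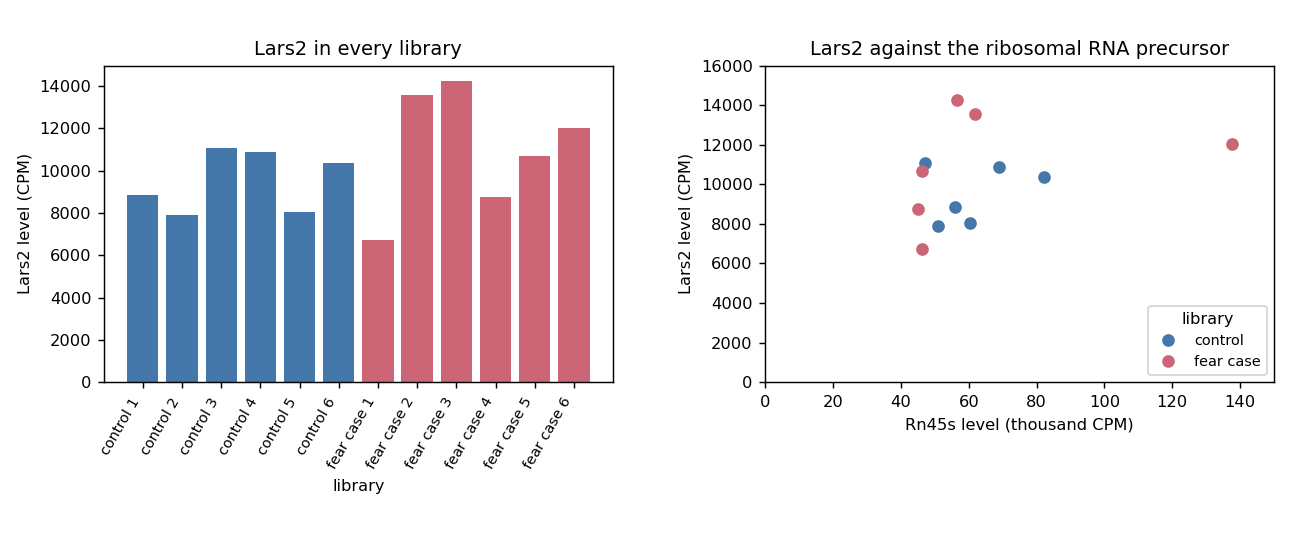
Left, Lars2 level in CPM in each control (blue) and fear case (red) library; right, the same values against the level of the ribosomal RNA precursor Rn45s on a linear axis, a point for each library. Fear case values run from 6717 to 14249 and span beyond the control range of 7884 to 11086 on both sides, and the library at 137752 CPM of Rn45s, fear case 6, is not the highest in Lars2.

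The members did not move as a block with the groups. The deviation of each gene from its own mean over the 12 libraries was taken on the log2 scale, and its median over the cytosolic genes was formed in every library. That median ran from -0.08 to 0.08 in controls and from -0.11 to 0.07 in fear case. The lowest library was fear case 2 and the highest control 6. For the 15 mitochondrial genes without Lars2 it ran from -0.11 to 0.05 in controls and from -0.14 to 0.13 in fear case. Fear case 1, 2 and 5 lay above every control there, and fear case 6, the deepest library, was the lowest of the 12 at -0.14. Summed levels were 1293 to 1471 CPM in controls and 1294 to 1481 CPM in fear case for the cytosolic genes. They were 212 to 239.5 CPM and 203 to 235 CPM for the 15 mitochondrial genes.

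**Figure D4:**
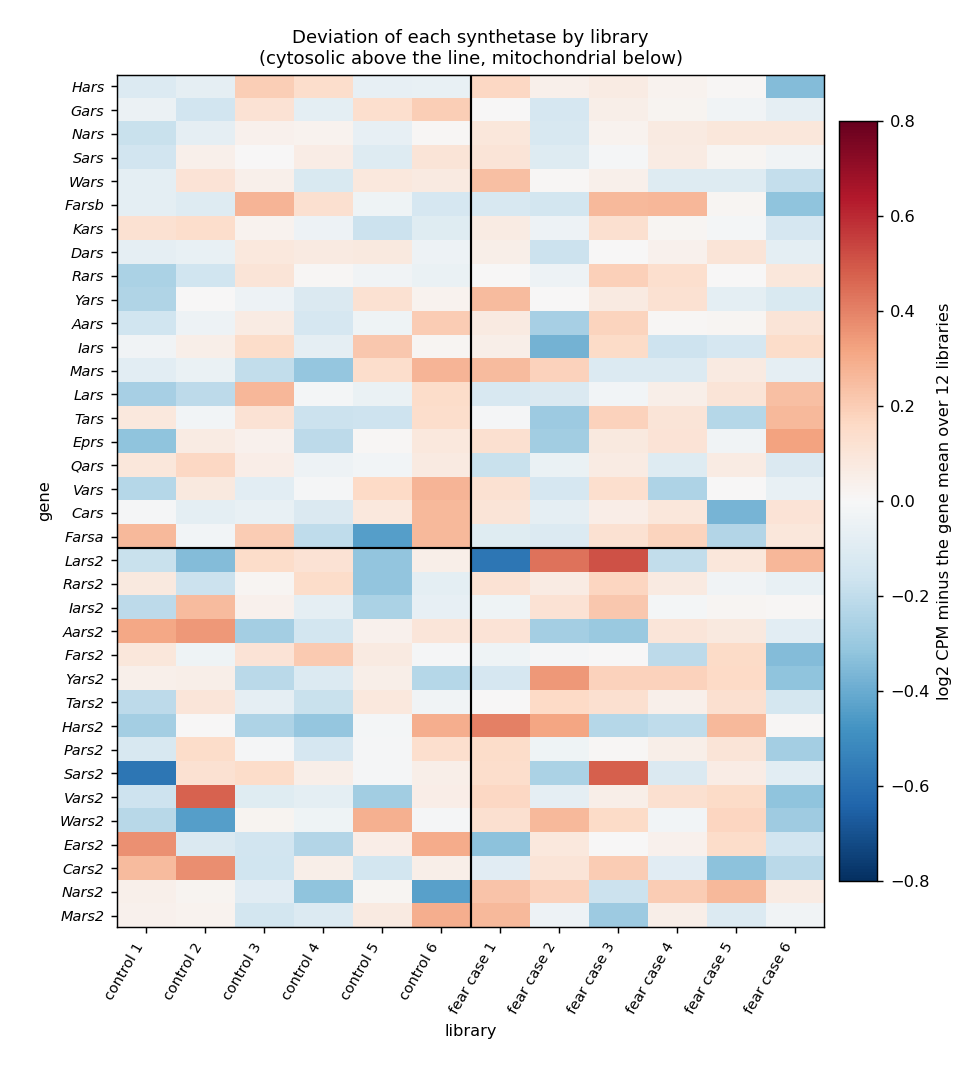
Log2 CPM of each synthetase minus its mean over the 12 libraries, as a colour (red above, blue below the gene's mean), with cytosolic genes above and mitochondrial genes below the horizontal line, each in order of level, and controls left of the vertical line. In no row are the controls wholly on the other side of 0 from the fear case libraries, and the row of Lars2 holds both strong blue (fear case 1) and strong red (fear case 3) within fear case.

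The synthetases known as ATF4 targets include the 4 whose promoter windows are printed above. Of the 12 in this list, 0 passed, 8 log2 fold changes were positive and 4 negative, and the median was 0.03. Among the genes with the printed windows, Gars stood at -0.06, Iars (isoleucyl) at -0.10, Tars (threonyl) at 0.02 and Yars (tyrosyl) at 0.08 on the log2 scale. Other ATF4 targets, such as enzymes of amino acid synthesis and amino acid transporters, gave 0 that rose, 0 that fell and 19 that did not pass, with a median of -0.04. Trib3, the remaining listed gene, was below the filter on low counts. Their lowest p was that of Nupr1, a small stress-response regulator, which ranged from 3.08 to 4.51 CPM in controls and from 1.26 to 3.13 CPM in the fear case libraries. Its log2 fold change was -0.54 (SE 0.23, unadjusted p = 0.0258, edgeR adjusted p = 0.613). Phgdh, the first enzyme of serine synthesis, followed at -0.16 (SE 0.09, edgeR adjusted p = 0.747).

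The partners of the synthetases did not pass either. The list of 27 genes holds the scaffolds of the multisynthetase complex, editing factors, the mitochondrial amidotransferase, selenocysteine factors, elongation factors that carry charged tRNA and tRNA processing enzymes. Of these, 0 rose, 0 fell and 27 did not pass. Their log2 fold changes had a median of 0.0073, with 15 positive and 12 negative. Pstk, the kinase that prepares serine-charged tRNA for conversion to selenocysteine, had the lowest p. It ranged from 8.44 to 10.7 CPM in controls and from 9.79 to 15.4 CPM in the fear case libraries. Its log2 fold change was 0.28 (SE 0.12, unadjusted p = 0.0319, edgeR adjusted p = 0.619). Mtfmt, which formylates the mitochondrial initiator tRNA, followed at 0.24 (SE 0.13, edgeR adjusted p = 0.742). The complex scaffolds Aimp1, Aimp2 and Eef1e1 stood at 0.04, 0.22 and 0.13. The 3 scaffolds were singled out after their values were seen.

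Without fear case 6, which stood apart in depth, Rn45s and choroid plexus markers, 128 genes were called in place of 15 and again 0 synthetases. Their median log2 fold change was then 0.01 for the cytosolic and 0.10 for the mitochondrial genes.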

How the data were processed

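Polyribosomal RNA libraries were analysed from 12 samples, 6 control and 6 fear case by the sample group label. RNA was pelleted through 1 M sucrose for 4 h and sequenced as 40-base read pairs, per the labels' protocols. The authors deposited raw read counts for each gene symbol. Tools listed in the submitters' processing notes are HTSeq, Bowtie, TopHat and cutadapt, with the build mm10. Annotation and strand setting: not given in the sources used here. Counter summary rows were left out. Of the counts on a gene, no gene or several genes, 25.5% to 33.3% fell on no gene.

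Counts were fitted in R 4.3.3 with edgeR 4.0.16 (filterByExpr with a minimum count of 10 and total of 15, TMM, estimateDisp, glmQLFit, glmQLFTest, no covariates, all 12 libraries). p-values were adjusted by Benjamini-Hochberg over 14564 genes and calls made at 0.05. The SE is the log2 fold change over the square root of F, and intervals use the fitted degrees of freedom. CPM values were scaled by TMM, with a prior count of 2 on the log2 scale. DESeq2 1.42.0, limma 3.58.1 (voom), other scalings and filters, a replicate block, a choroid plexus score (mean log2 CPM of 19 markers) and leaving out each library were alternatives. At the median depth of 21.6 M counts, 1 CPM is about 21.6 counts, and the lowest member had 97 counts in a library.

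Members and lists were chosen with earlier results of these data known. Named in full are, by rule, members called or without overlap, the 4 lowest p and the 3 highest and lowest levels per compartment, Lars2, Gars and Kars, and the 2 lowest p of the other lists.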

Additional observations from a re-analysis of the deposited data

Results flagged for a closer look

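In each of the 72 combinations of a synthetase and a group of 6 libraries, the lowest and the highest library were compared with their nearest neighbour by Dixon's ratio at its 95% critical value. This marks about 5% of groups by chance, and 3 were marked. Hars stood at 94.0 CPM in fear case 6, where the other fear case libraries held 120 to 135 CPM. Nars stood at 157 CPM in fear case 2, where the others held 175 to 183 CPM. Sars2, the mitochondrial seryl enzyme, stood at 4.94 CPM in control 1, where the other controls held 7.37 to 8.25 CPM.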

How the results depend on the processing

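The counts of called synthetases, partners and other ATF4 targets were 0 with the settings reported. Under the 20 alternatives, 0 of the 720 refitted member values were called, with a lowest adjusted p of 0.476, and log2 fold changes between -0.30 and 0.31. Over all genes, 15 were called with those settings, 61 with DESeq2, 37 without a low-count filter, 5 with the choroid plexus score as covariate, and 9 to 128 with one library left out (9 without control 3 or fear case 2, 128 without fear case 6). With the replicate number as a block (replicate block), 18 genes were called and 0 synthetases; same-numbered libraries did not deviate together (correlations from -0.17 to 0.05). The median ratio of cytosolic to mitochondrial level was 4.53 with the longest transcript. The mitochondrial median log2 fold change was -0.0301 with the choroid plexus covariate. Signs turned in 52 of the 720 values, and 18 of 36 members kept theirs throughout. With that covariate the log2 fold change was 0.0145 for Dars, 0.0817 for Iars, -0.0307 for Kars, -0.022 for Tars2, -0.109 for Vars2, -0.033 for Wars2 and -0.133 for Yars2. Pars2 was at 9.7e-05 with RLE size factors. With a library left out, values ran from -0.0426 to 0.0128 for Dars, -0.0293 to 0.035 for Kars, -0.0126 to 0.101 for Lars, -0.049 to 0.0397 for Cars, -0.114 to 0.0193 for Farsa, -0.0669 to 0.048 for Farsb, -0.048 to 0.0508 for Hars, -0.0121 to 0.0352 for Sars, -0.0417 to 0.0712 for Tars, -0.089 to 0.00157 for Wars, -0.116 to 0.00575 for Mars2, -0.0334 to 0.0518 for Pars2, -0.0237 to 0.13 for Sars2 and -0.0316 to 0.136 for Vars2. The cause of these turns was not tested. Depth limits the mitochondrial genes most: counting error was 6.62% of their level against 2.91% for cytosolic genes (medians, controls).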
